A study of Rattus norvegicus with 90 samples.

Results

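The comparison described here sets microglia-enriched brain cells of rat pups that had been exposed to interleukin-1β (IL-1β) and then given human umbilical cord mesenchymal stromal cells (HuMSC) against those of uninjured pups, at postnatal day (P) 12. It uses every library of the intranasal P12 experiment that carries those labels: 12 of the 90 libraries of the series, made of 9 treated and 3 control libraries. The question is what still differed from uninjured animals after treatment, over all genes. The 3 injured libraries of the same run are given beside them for scale.

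Treated pups were male Wistar Han rats that received recombinant mouse IL-1β intraperitoneally at 20 µg/kg from the first to the fifth day of life, then HuMSC in PBS by the nose at P10, at 20M, 50M or 125M cells/kg, with 3 libraries a dose. Injured pups received the same IL-1β course and intranasal PBS (3 libraries). Control pups received PBS in place of both (3 libraries). All were collected at P12, 48 h after the cells or the sham, perfused with saline, and the brain without olfactory bulbs and cerebellum was dissociated. Cells were enriched with beads against CD11b/c, a surface marker that other myeloid cells also carry, so the fraction is enriched for microglia and is not pure. IL-1β given to the whole animal is a model of inflammation around birth, and no group of this run received HuMSC without IL-1β.

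Microglia are the resident macrophages of the brain. In the first weeks of life they prune synapses, clear dying cells and supply factors that oligodendrocytes, the myelin-forming cells, depend on. Systemic inflammation at this age is known to shift microglia from their resting programme and to delay the maturation of oligodendrocytes. In the rat the second week after birth is a period of rapid myelin formation.

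The 15 libraries of this run held 11.4M to 15.9M counts, with normalization factors of 0.945 to 1.03 and 2.87 to 7.63% of counts from the mitochondrial genome. Libraries of a group correlated at 0.970 to 0.986 (Pearson's r across genes, log2 scale, a description), and no pair agreed within counting noise. The identity of the cells was as labelled: Csf1r, the receptor that microglia need to survive, stood at 6537 to 8691 CPM (counts scaled to a common library size) in treated, 7502 to 10360 in injured and 7992 to 8449 in control libraries. P2ry12, a receptor that marks resting microglia, stood at 1416 to 1891 CPM in treated, 1435 to 2248 in injured and 1928 to 2199 in control libraries. The HuMSC125 replicate 2 library stood apart for neuronal transcripts, as given below. The labels do not say that replicates are separate animals, so p-values measure the spread between samples, which may be partly technical.

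Few genes passed the test between all treated libraries together and control. Of 13868 genes tested, 7 passed the test (0.0505%; edgeR's quasi-likelihood test, Benjamini-Hochberg adjusted p under 0.05), 2 higher (0.0144%) and 5 lower (0.0361%) in treated libraries. Without adjustment 1761 genes (12.7%) had p under 0.05, 793 higher (5.72%) and 968 lower (6.98%). Lower genes included Ankrd55, Dpp6, Ephb1 and the myelin gene Mog; the higher 2 were Gas7 and Pygl. For each of these 6 named genes all 9 treated libraries lay on one side of all 3 control libraries, as did 172 genes above control (1.24% of those tested) and 203 below (1.46%). In the same fit 383 genes (2.76%) passed in injured against control libraries, and 225 (1.62%) passed in treated against injured libraries, 49 higher (0.353%) and 176 lower (1.27%) in treated. The contrasts with control share their 3 control libraries, and the treated contrast averages 9 libraries where the injured one has 3.

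The count of 7 depended on single libraries. It was 0 without HuMSC50 replicate 1, control replicate 1 or control replicate 2, 1 when HuMSC20 replicate 2 was left out, and 3 without HuMSC20 replicate 1, HuMSC50 replicate 2 or control replicate 3. Leaving out HuMSC20 replicate 3 gave 4, and the count was 5 without HuMSC125 replicate 1, 6 without HuMSC125 replicate 2, and 7 without HuMSC50 replicate 3 or HuMSC125 replicate 3. Injured libraries share the fit but not the comparison, and the count was 8, 6 or 2 when injured replicate 1, 2 or 3 was left out. DESeq2 called 130 genes on the same counts. No log2 fold change of the 6 named genes changed sign under any alternative tried, with ranges of -1.07 to -0.81 for Ephb1, 0.62 to 0.71 for Gas7 and 0.49 to 0.70 for Pygl, and those of the others below.

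Ankrd55 encodes an ankyrin-repeat protein, and its human locus is associated with autoimmune diseases that include multiple sclerosis. It had 70.9, 75.3 and 76.6 CPM at 20M cells/kg, 70.0, 76.5 and 77.5 at 50M cells/kg, 79.7, 75.1 and 101 at 125M cells/kg, 41.1, 84.9 and 78.3 in injured and 131, 149 and 150 in control libraries. All treated and all injured libraries were below all control libraries, and the treated and injured groups overlapped. The difference from control was -0.88 ± 0.15 on the log2 scale (SE; adjusted p = 0.0448) for all treated libraries and -1.07 ± 0.19 (adjusted p = 0.0103) for injured libraries. Treated and injured libraries differed by 0.19 ± 0.16 (adjusted p = 0.623), which does not show that they were alike. With a library left out Ankrd55 passed in 1 of 12 fits, that without HuMSC125 replicate 3, with adjusted p up to 0.235 and log2 fold changes between -0.94 and -0.85.

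Dpp6 encodes an auxiliary subunit of voltage-gated Kv4 potassium channels. It had 20.7, 33.7 and 23.8 CPM at 20M cells/kg, 17.4, 28.4 and 35.8 at 50M cells/kg, 30.9, 33.3 and 31.9 at 125M cells/kg, 13, 24.6 and 20.6 in injured and 65.1, 122 and 62.5 in control libraries. The highest treated library was well under the lowest control library, and control replicate 2 was far above the other two controls. The log2 difference from control was -1.55 ± 0.22 for treated libraries (adjusted p = 0.0267) and -2.10 ± 0.30 for injured libraries (adjusted p = 0.00251). Across all alternatives the treated value stayed between -1.73 and -1.18, and the call held in 9 of the 12 fits that left out a library. It was lost without HuMSC50 replicate 1 (adjusted p = 0.0549), control replicate 1 (0.0763) and control replicate 2 (0.149).

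Ephb1 encodes a receptor tyrosine kinase for ephrin-B ligands, which steer contact between cells. It had 14.4, 12.0 and 15.8 CPM at 20M cells/kg, 18.1, 25.9 and 20.7 at 50M cells/kg, 18.9, 14.8 and 17.5 at 125M cells/kg, 8.88, 10.4 and 12.2 in injured and 38.0, 34.1 and 26.3 in control libraries. Treated libraries lay between the others: below every control library, though HuMSC50 replicate 2 was within 1 CPM of the lowest, and above the injured libraries except for 1 overlap at 20M cells/kg. Both differences passed the test. The log2 difference was -0.92 ± 0.13 from control (adjusted p = 0.0267) and 0.72 ± 0.15 from injured libraries (adjusted p = 0.0294). The call against control was lost without HuMSC20 replicate 2 (adjusted p = 0.0614), HuMSC50 replicate 1 (0.0563), control replicate 1 (0.158) and control replicate 2 (0.149).

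**Figure D1:**
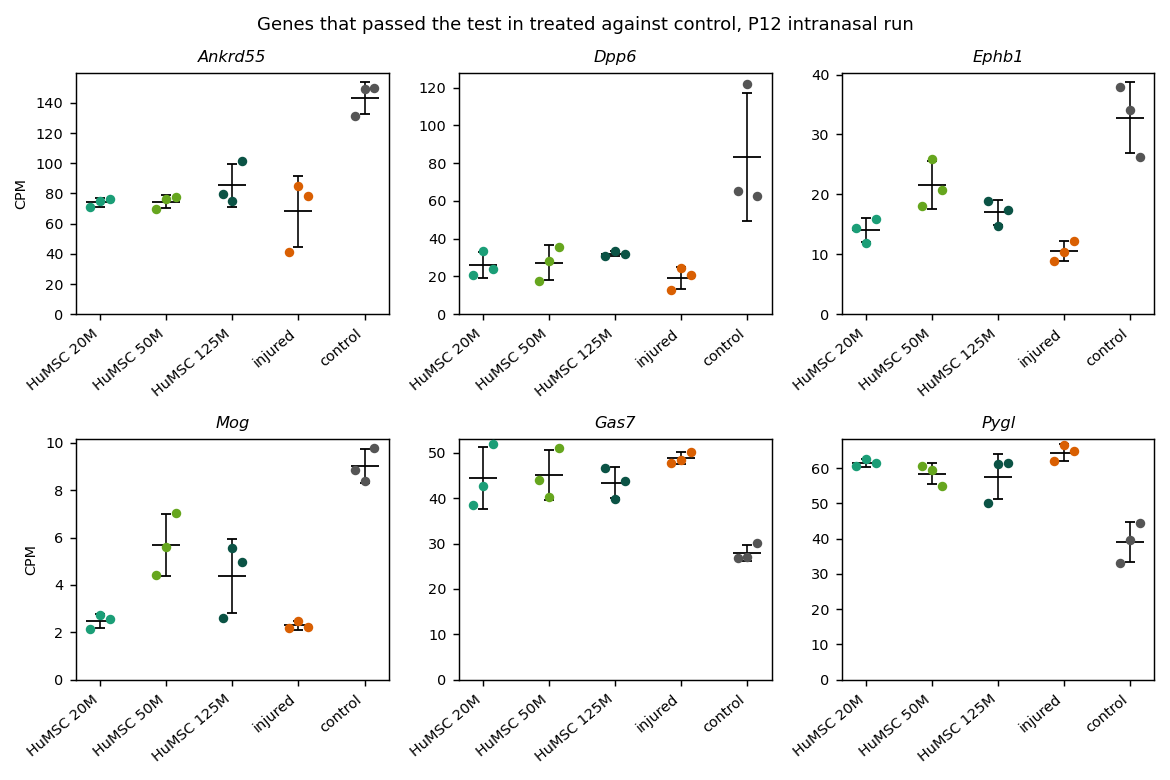
CPM of 6 genes that passed the test in treated against control libraries, 1 panel a gene, with the groups along the x axis (HuMSC doses in M cells/kg, then injured, then control). Points are libraries, bars the mean and SD of 3 libraries; in Ankrd55, 70.0 to 101 CPM in the 9 treated libraries stand under 131 to 150 in control libraries, and in Gas7 38.5 to 51.9 stand above 26.9 to 30.1.

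The 2 genes that stayed higher were Gas7 and Pygl. Gas7 encodes an F-BAR protein that binds membranes and actin. It had 38.5, 42.8 and 51.9 CPM at 20M cells/kg, 44.1, 40.2 and 51.1 at 50M cells/kg, 46.6, 39.8 and 43.9 at 125M cells/kg, 47.8, 48.4 and 50.3 in injured and 26.9, 27.0 and 30.1 in control libraries. Pygl encodes the liver form of glycogen phosphorylase, which releases glucose units from glycogen. It had 60.5, 62.7 and 61.4 CPM at 20M cells/kg, 60.6, 59.4 and 55.0 at 50M cells/kg, 50.1, 61.1 and 61.4 at 125M cells/kg, 62.0, 66.5 and 64.8 in injured and 33.0, 39.6 and 44.5 in control libraries. In both genes treated and injured libraries overlapped, and both groups lay above all control libraries.

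The log2 difference of treated from control libraries was 0.66 ± 0.10 for Gas7 and 0.60 ± 0.09 for Pygl (adjusted p = 0.0267 for both). In injured libraries Gas7 differed from control by 0.80 ± 0.12 and Pygl by 0.72 ± 0.11. Treated minus injured was -0.14 ± 0.09 for Gas7 (adjusted p = 0.537) and -0.12 ± 0.09 for Pygl (adjusted p = 0.558), neither past the test. The 3 doses were close: Gas7 was 0.67, 0.69 and 0.63 above control and Pygl 0.66, 0.58 and 0.56 on the log2 scale, from the lowest dose to the highest, with SEs of 0.11 to 0.12. The test among doses gave an adjusted p of 0.977 for Gas7 and 0.928 for Pygl. Gas7 kept its call in 7 of the 12 fits that left out a library (lost without HuMSC20 replicate 2, HuMSC50 replicate 1 or any 1 control, adjusted p up to 0.193) and Pygl in 5 (lost without any HuMSC20 library, HuMSC50 replicate 1 or 2, or control replicate 1 or 2, adjusted p up to 0.158).

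Mog, a marker of oligodendrocytes, encodes a glycoprotein of the outer myelin surface. It had 2.16, 2.71 and 2.54 CPM at 20M cells/kg, 4.40, 5.62 and 7.04 at 50M cells/kg, 2.61, 5.56 and 4.97 at 125M cells/kg, 2.16, 2.49 and 2.20 in injured and 8.87, 8.37 and 9.80 in control libraries. The lowest dose overlapped the injured group, the higher doses lay between injured and control, and no treated library reached a control library.

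The log2 difference of Mog from control over all treated libraries was -1.19 ± 0.19 (adjusted p = 0.0409), with a range of -1.25 to -1.10 under the alternatives. From injured libraries, treated libraries differed by 0.79 ± 0.23 (adjusted p = 0.105). Mog passed against control in 4 of the 12 fits that left out a library. It lost its call without any 1 control library (adjusted p up to 0.158), any HuMSC20 library or HuMSC50 replicate 1 or 2. In a bulk sample, fewer oligodendrocytes carried along and less RNA in each of them cannot be told apart.

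The wider list of oligodendrocyte markers, which includes Mog, showed where these transcripts were low. The list was chosen with earlier results of these data known, so its counts beside the shares of all genes are a description. Of its 18 tested members, 2 fell in all treated libraries together (0.0361% of all genes did) and none rose, and 12 were lower at an unadjusted p under 0.05, against 6.98% of all genes; the median log2 difference was -0.67 against 0.01 over all genes. The 2 became 0 when HuMSC20 replicate 1 or 2, HuMSC50 replicate 1 or 2, or any control library was left out, and in the 12 libraries without the injured group. The 12 stayed between 10 and 12 whichever treated or control library was left out. By dose the medians were -1.21, -0.44 and -0.48 from the lowest to the highest dose, and -1.41 in injured libraries. The summed level was 675, 753 and 816 CPM at 20M cells/kg, 912, 1267 and 1225 at 50M cells/kg, 962, 1263 and 1060 at 125M cells/kg, 597, 748 and 711 in injured and 1238, 1164 and 1295 in control libraries. At 20M cells/kg every library was below every control library, while at both higher doses 1 or more libraries reached the control range.

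Not all members of that list were low. Mbp, myelin basic protein, differed from control by -0.25 over all treated libraries (unadjusted p = 0.24), Cnp by -0.09 and Myrf, the transcription factor that starts the myelin programme, by -0.05. The list of oligodendrocyte precursors, the dividing cells from which oligodendrocytes form, had 0 of 11 tested members at an unadjusted p under 0.05 in either direction. Over all genes 5.72% were higher and 6.98% lower. In a list this short a count of 0 is near those shares and does not show that precursors were unchanged. Olig1 had 0.28 on the log2 scale (adjusted p = 0.56).

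Taken one at a time, the lowest dose alone had genes that passed against control in the edgeR fit used here. At 20M cells/kg 14 genes passed (0.101%), 7 higher and 7 lower, against 0 (0%) at 50M cells/kg and 0 (0%) at 125M cells/kg. At an unadjusted p under 0.05 the counts were nearer to each other: 1558 (11.2%) at 20M cells/kg, 1622 (11.7%) at 50M cells/kg and 1368 (9.86%) at 125M cells/kg. DESeq2 called 180, 70 and 33 genes in the same order, and edgeR without the filter on low counts called 61, 8 and 0. With 1 of the 6 libraries of this comparison left out the count of 14 was 0 to 5: 0 without HuMSC20 replicate 2 or control replicate 1, 2 without HuMSC20 replicate 1 or 3, and 4 or 5 when control replicate 3 or 2 was left out. Libraries of other groups, which share the fit, also moved it: it was 34 without HuMSC125 replicate 2, 28 without HuMSC125 replicate 3, 27 without injured replicate 2, and 12 to 18 when any other such library was left out. The difference between doses was tested on its own: 33 genes (0.238%) passed in a test among the 3 doses, of which 32 were highest at 20M cells/kg and 1, Mobp, was lowest there. That count was 2 to 66 with a library left out, 2 without HuMSC20 replicate 3, 4 without HuMSC20 replicate 2 or HuMSC50 replicate 2, 6 without HuMSC50 replicate 3, 12 without HuMSC125 replicate 3, 21 without HuMSC20 replicate 1 and 66 without HuMSC125 replicate 2.

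Lower genes at 20M cells/kg included Dpp6, Ephb1, Mog, Mobp and Mag (both of these encode myelin proteins), and Ugt8, the enzyme that makes the myelin lipid galactosylceramide. Mobp had 8.63, 8.82 and 10.6 CPM at 20M cells/kg, 14.8, 30.3 and 32.9 at 50M cells/kg, 16.7, 20.9 and 22.3 at 125M cells/kg, 7.41, 7.69 and 9.30 in injured and 31.6, 25.4 and 28.0 in control libraries. The lowest dose stood with the injured libraries, and at 50M cells/kg 2 of 3 libraries stood within the control range or above it. Against control Mobp differed by -1.60 ± 0.23 at 20M cells/kg (adjusted p = 0.0133), -0.12 ± 0.22 at 50M cells/kg and -0.50 ± 0.22 at 125M cells/kg, and it passed the test among doses (adjusted p = 0.0359). Mag, Mog and Ugt8 did not pass the test among doses, with adjusted p of 0.0592, 0.179 and 0.241. Mobp, Mag, Mog, Ugt8, Ephb1 and Pygl each kept the call at this dose in 1 of the 6 fits that left out a library of the comparison, with adjusted p of 0.0533 to 0.187 in the others.

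**Figure D2:**
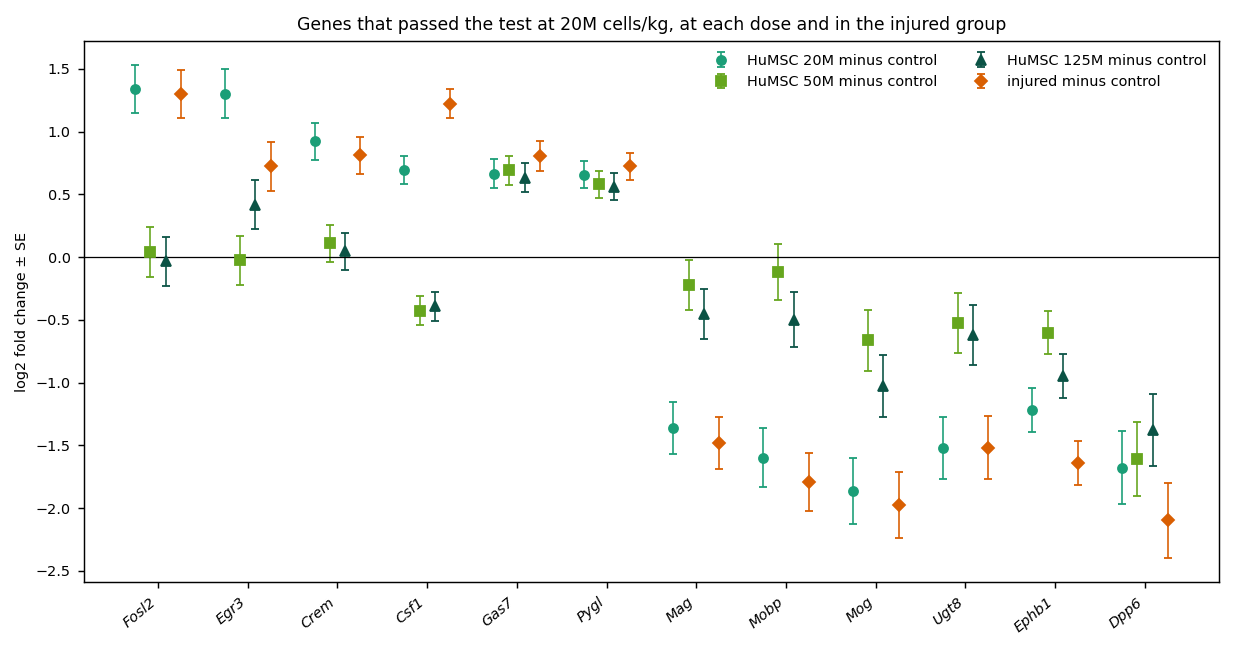
Log2 fold change against control, with its SE, of 12 of the genes that passed at 20M cells/kg, at each dose and in the injured group; Adamts13 is not drawn. Gas7 and Pygl had like values at every dose (0.56 to 0.69), while Mobp stood at -1.60 at the lowest dose and at -0.12 and -0.50 at the others.

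The 7 higher genes at 20M cells/kg were Gas7, Pygl, Adamts13 and 4 genes of activation: Fosl2, Egr3, Crem and Csf1. Fosl2 encodes a Fos-family subunit of the transcription factor AP-1. It had 14.8, 13.2 and 13.9 CPM at 20M cells/kg, 6.80, 4.77 and 5.51 at 50M cells/kg, 5.05, 5.63 and 5.49 at 125M cells/kg, 17.5, 10.3 and 13 in injured and 5.97, 5.63 and 4.98 in control libraries. The lowest dose lay in the injured range and the higher doses in or near the control range. The log2 difference from control was 1.34 ± 0.19 at 20M cells/kg (adjusted p = 0.0133), 0.04 ± 0.20 at 50M cells/kg and -0.04 ± 0.20 at 125M cells/kg; among doses the adjusted p was 0.00521.

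Csf1 encodes a ligand of Csf1r and drives microglial survival and division. It had 60.5, 60.6 and 62.2 CPM at 20M cells/kg, 29.5, 28.1 and 26.8 at 50M cells/kg, 27.9, 34.3 and 24.2 at 125M cells/kg, 85.7, 80.5 and 98.2 in injured and 38.0, 39.0 and 36.5 in control libraries. The 5 groups did not overlap except for the 2 higher doses, which lay below control. The log2 difference from control was 0.69 ± 0.11 at 20M cells/kg (adjusted p = 0.0219), -0.43 ± 0.12 at 50M cells/kg (adjusted p = 0.277) and -0.39 ± 0.11 at 125M cells/kg (adjusted p = 0.342), so that averaging the doses gave -0.04 ± 0.09. Of the genes called among doses it had the smallest adjusted p, 0.000352, and it passed that test in all 9 fits that left out a library.

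Egr3, an early growth response transcription factor, had 224, 309 and 364 CPM at 20M cells/kg, 150, 103 and 105 at 50M cells/kg, 148, 183 and 155 at 125M cells/kg, 221, 205 and 174 in injured and 143, 130 and 90.9 in control libraries. Crem, a modulator of transcription driven by cyclic AMP, had 48.6, 49.7 and 63.9 CPM at 20M cells/kg, 32.5, 28.5 and 31.3 at 50M cells/kg, 26.9, 36.8 and 24.6 at 125M cells/kg, 54.2, 44.1 and 52.2 in injured and 27.7, 30.9 and 27.0 in control libraries. For both genes every library of the lowest dose was above every control library, as for 7.83% of all genes. Egr3 differed from control by 1.30 ± 0.20 (adjusted p = 0.0147) and Crem by 0.92 ± 0.15 (adjusted p = 0.0216) at 20M cells/kg, on the log2 scale, and neither gene's other doses passed. None of Fosl2, Crem and Csf1 kept its call against control in any of the 6 fits at the lowest dose that left out a library (adjusted p of 0.0533 to 0.125), nor did Dpp6 or Gas7 at this dose, and Egr3 did so in 1, that without HuMSC20 replicate 1.

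Adamts13, a protease that cleaves von Willebrand factor, reached 1 CPM in the HuMSC20 libraries alone in this run, unevenly. It had 47.1, 7.13 and 1.89 CPM at 20M cells/kg and at most 0.154 CPM in any other library of the run, control libraries included (at most 0.0853). The test gave adjusted p = 0.0147 at 20M cells/kg, a call lost without HuMSC20 replicate 2 (adjusted p = 0.0682) and without control replicate 1, 2 or 3 (adjusted p of 0.128, 0.103 and 0.112), and no fold is given against groups at or near 0. In the other 5 runs 15 of 75 libraries had 1 CPM or more, 3 of them controls. Those 3 controls were all of the P22 intravenous run, at 5.03, 53.1 and 64.1 CPM. Control libraries of every other run had at most 0.137 CPM. High levels were thus also found in uninjured animals, in that run alone.

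**Figure D3:**
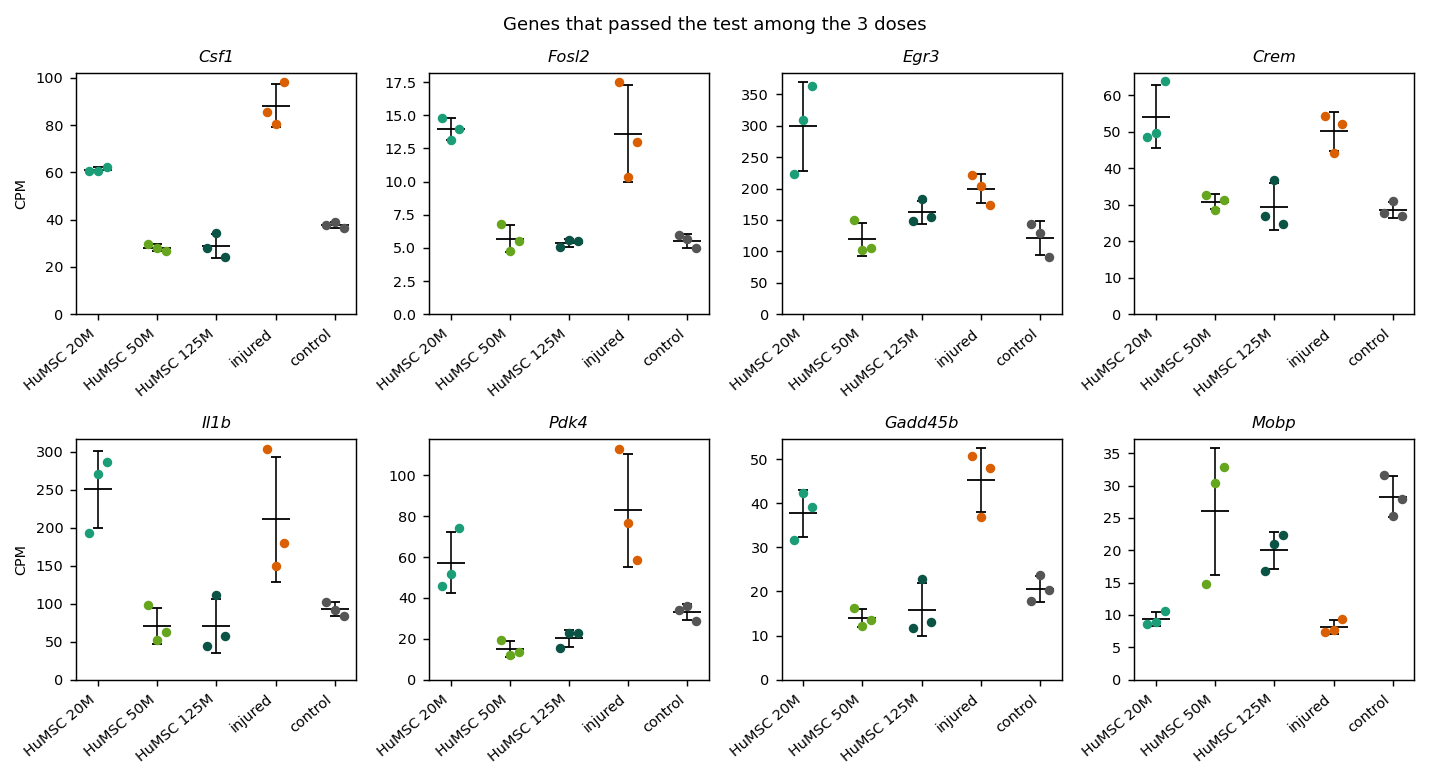
CPM of 8 genes that passed the test among the 3 doses, by group; points are libraries, bars the mean and SD of 3 libraries. Csf1 stands at 60.5 to 62.2 CPM at 20M cells/kg against 24.2 to 34.3 at the higher doses, and Mobp shows the opposite order, with 8.63 to 10.6 against 14.8 to 32.9.

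The list of immediate early genes, which many cells switch on within minutes of a stimulus and which dissociation of tissue also induces, followed the lowest dose. This list too was chosen with earlier results of these data known. At 20M cells/kg 2 of its 36 tested members rose (Fosl2 and Egr3, where 0.0505% of all genes did), none fell, and 24 were higher and 0 lower at an unadjusted p under 0.05, against 5.47% and 5.76% of all genes; the median log2 difference was 0.84 against 0.00 over all genes. The 2 became 1 without HuMSC20 replicate 1 and 0 when any other library of this comparison was left out, and the 24 stayed between 21 and 28. At 50M cells/kg 0 members were higher and 5 lower without adjustment (5.67% and 6.03% of all genes), with a median of -0.20, and the 5 became 10 without control replicate 3. At 125M cells/kg 1 was higher and 5 lower (5.6% and 4.27% of all genes), with a median of -0.16. Those 5 became 1 when HuMSC125 or control replicate 1 was left out and 11 when HuMSC125 replicate 2 was, and lay between 2 and 8 for each of the other libraries. In injured libraries 9 members passed, all higher (1.6% of all genes were), with a median of 0.62. Over all treated libraries 8 were higher and 2 lower without adjustment (5.72% and 6.98% of all genes), with a median of 0.13; without control replicate 3 these became 2 and 5, and leaving out control replicate 1 or 2 brought the lower count to 0. Mitochondrial transcripts took 3.91 to 4.26% of counts at 20M cells/kg, 2.87 to 7.63% at 50M cells/kg, 5.41 to 7.36% at 125M cells/kg, 3.14 to 4.53% in injured and 4.78 to 5.90% in control libraries. Whether dissociation or this share plays a part was not tested. The summed level was 15760, 21970 and 18590 CPM at 20M cells/kg, 11260, 9844 and 9788 at 50M cells/kg, 8461, 12430 and 10460 at 125M cells/kg, 19980, 14310 and 13610 in injured and 13110, 13670 and 8408 in control libraries.

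Egr1 and Arc are given as members of that list that did not pass the test at 20M cells/kg. Egr1, a transcription factor induced by serum and growth factors, had 1366, 1764 and 1574 CPM at 20M cells/kg, 912, 906 and 966 at 50M cells/kg, 784, 1291 and 988 at 125M cells/kg, 1283, 1251 and 1134 in injured and 886, 988 and 619 in control libraries. At the lowest dose it differed from control by 0.92 ± 0.18 on the log2 scale (adjusted p = 0.0657). Arc, a synaptic plasticity gene that is also induced early, differed by 1.44 ± 0.27 there (adjusted p = 0.0618).

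Among genes of inflammation Il1b, which encodes IL-1β itself, passed among doses (adjusted p = 0.0289) but not at any dose against control. It had 193, 271 and 287 CPM at 20M cells/kg, 97.6, 52.0 and 63.1 at 50M cells/kg, 43.6, 111 and 57.0 at 125M cells/kg, 304, 149 and 180 in injured and 103, 91.7 and 84.2 in control libraries. Every HuMSC20 library was above every control library and the higher doses overlapped control. Of 33 tested members of the list of inflammatory cytokines and NF-κB targets, 1 (Csf1) passed at 20M cells/kg, higher (0.0505% of all genes were). Without adjustment 14 were higher and 3 lower there (5.47% and 5.76% of all genes). The 14 became 8 or 9 when HuMSC20 replicate 2 or 3 was left out, and the 3 became 1 when HuMSC20 replicate 3, control replicate 2 or control replicate 3 was left out. At 50M cells/kg 0 were higher and 10 lower (5.67% and 6.03% of all genes). At 125M cells/kg 1 was higher and 7 lower (5.6% and 4.27% of all genes), and the 7 became 16 without HuMSC125 replicate 2. In treated against injured libraries 13 of the 33 fell and none rose, where 1.27% of all genes fell.

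Pdk4 (adjusted p = 0.00521) and Gadd45b (adjusted p = 0.0176) also passed edgeR's test among doses. Pdk4, a kinase that turns glucose oxidation down, had 46.1, 51.6 and 74.1 CPM at 20M cells/kg, 19.5, 12.0 and 13.5 at 50M cells/kg, 15.3, 22.6 and 22.6 at 125M cells/kg, 113, 76.9 and 58.7 in injured and 34.2, 36.1 and 28.9 in control libraries. All 6 libraries of the higher doses were below all 3 control libraries, but the difference did not pass (-1.14 ± 0.25 at 50M cells/kg, adjusted p = 0.222, and -0.71 ± 0.25 at 125M cells/kg, adjusted p = 0.379). Gadd45b, a stress-induced gene, had 31.8, 42.3 and 39.2 CPM at 20M cells/kg, 16.1, 12.2 and 13.5 at 50M cells/kg, 11.7, 22.8 and 13.1 at 125M cells/kg, 50.8, 37.0 and 48.1 in injured and 17.8, 23.7 and 20.4 in control libraries. For this gene the call among doses was lost in 4 of 9 fits that left out a treated library (adjusted p of 0.0538 to 0.146). Pdk4 and Fosl2 lost theirs without HuMSC20 replicate 3 (adjusted p of 0.0663 and 0.0661).

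The promoter windows of 4 genes are given with their sequence from RefSeq (rat assembly GRCr8, 250 bases before to 50 after the gene start, 5′ to 3′ on the gene's strand). Egr1 and Fosl2 are members of the immediate early list that were high at the lowest dose. Fosl2 passed the test there and Egr1 did not, nor did Egr1 pass among doses. The called genes Egr3, Csf1 and Crem had no single promoter entry and are not shown. Ankrd55 and Dpp6 stand for the genes below control at every dose, and other genes called over all doses are not shown. Capitals mark matches to motifs of activity-induced transcription, searched on both strands: the cyclic AMP response element TGACGTCA, the AP-1 site TGANTCA, the serum response element (CArG box), and the EGR sites GCGTGGGCG and GCGGGGGCG. Of 33469 promoter windows of that assembly, 1.83% hold the first, 7.33% the second, 1.64% the third and 3.2% one of the last. A match is a description of the letters and not a site shown to be used.
Egr1, chr18:26736828-26737127, plus strand: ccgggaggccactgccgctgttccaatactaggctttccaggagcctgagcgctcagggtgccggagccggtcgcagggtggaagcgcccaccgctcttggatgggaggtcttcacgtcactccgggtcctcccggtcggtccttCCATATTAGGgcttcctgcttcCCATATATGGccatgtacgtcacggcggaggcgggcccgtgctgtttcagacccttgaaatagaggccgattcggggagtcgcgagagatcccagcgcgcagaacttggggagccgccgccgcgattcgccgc
Fosl2, chr6:30039220-30039519, minus strand: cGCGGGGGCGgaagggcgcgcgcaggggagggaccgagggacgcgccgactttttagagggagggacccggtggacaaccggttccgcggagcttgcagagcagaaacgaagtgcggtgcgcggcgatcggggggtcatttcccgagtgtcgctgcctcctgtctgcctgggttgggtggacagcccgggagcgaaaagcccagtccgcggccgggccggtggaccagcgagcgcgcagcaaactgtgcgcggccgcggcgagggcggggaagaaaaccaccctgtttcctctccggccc
Ankrd55, chr2:45647536-45647835, plus strand: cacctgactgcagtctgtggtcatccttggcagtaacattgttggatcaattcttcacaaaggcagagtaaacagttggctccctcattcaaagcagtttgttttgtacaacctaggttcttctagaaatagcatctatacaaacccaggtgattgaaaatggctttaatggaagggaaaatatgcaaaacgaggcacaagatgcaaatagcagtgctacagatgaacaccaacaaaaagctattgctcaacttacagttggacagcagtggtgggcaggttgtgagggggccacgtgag
Dpp6, chr4:8995220-8995519, minus strand: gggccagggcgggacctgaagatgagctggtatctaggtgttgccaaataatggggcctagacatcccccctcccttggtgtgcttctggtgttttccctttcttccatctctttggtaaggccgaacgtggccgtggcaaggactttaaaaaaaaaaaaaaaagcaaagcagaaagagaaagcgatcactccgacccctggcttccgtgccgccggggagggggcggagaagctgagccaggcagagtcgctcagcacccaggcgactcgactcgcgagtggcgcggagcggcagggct
Egr1 holds 2 CArG boxes, Fosl2 holds 1 EGR site, and Ankrd55 and Dpp6 hold none of the motifs in these windows.

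Several genes called in injured against control libraries did not pass in treated against control libraries. The examples in this paragraph and the next come from a list of genes fixed by name. The injured libraries behind their calls also enter their differences from treated libraries, and picking genes on such calls favours a difference. Those differences are given as a description and do not by themselves show a return towards control. Cabp7, a calcium-binding protein, had 4.24, 5.26 and 5.50 CPM at 20M cells/kg, 6.08, 11.4 and 9.58 at 50M cells/kg, 11.2, 7.67 and 10.2 at 125M cells/kg, 1.70, 2.71 and 3.02 in injured and 14.4, 12.0 and 11.6 in control libraries. The treated libraries lay between injured and control without overlapping either, HuMSC50 replicate 2 just under the lowest control. The log2 difference from control was -0.74 ± 0.19 (adjusted p = 0.158) in treated and -2.34 ± 0.26 (adjusted p = 0.000649) in injured libraries, and the 2 groups differed by 1.60 ± 0.23 (adjusted p = 0.00371). Plin2, which coats lipid droplets, had 65.3 to 80.7 CPM in treated libraries (median 74.6), 92.5 to 107 in injured and 49.1 to 65.0 in control libraries. It again lay between the groups without overlap. Treated minus control was 0.34 ± 0.09 for Plin2 (adjusted p = 0.166) and treated minus injured was -0.47 ± 0.08 (adjusted p = 0.0128).

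Igf1, a growth factor that supports oligodendrocytes, had 45.7 to 74.3 CPM in treated libraries (median 58.9), 70.3 to 102 in injured and 42.7 to 54.7 in control libraries. Treated libraries overlapped both other groups. The log2 difference was 0.31 ± 0.14 from control (adjusted p = 0.369) and -0.64 ± 0.13 from injured libraries (adjusted p = 0.0244). Cd8a, a marker of cytotoxic T cells, had 1.60 to 10.9 CPM in treated libraries (median 5.31), 10.4 to 27.4 in injured and 2.39 to 5.32 in control libraries. The 3 highest treated libraries were those at 20M cells/kg, at 9.60 to 10.9 CPM, where 1 of them reached the injured range. Treated minus control was 0.61 ± 0.37 for Cd8a (adjusted p = 0.504) and treated minus injured was -1.82 ± 0.30 (adjusted p = 0.0104).

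Genes of resting microglia did not pass the test, though most had a negative log2 difference. Of 33 tested members of the homeostatic list 0 passed, where 0.0505% of all genes did. The difference was negative for 25 and positive for 8, with a median of -0.11 against 0.01 over all genes. The summed level was 55030 to 69760 CPM in treated, 56880 to 69270 in injured and 68200 to 75180 in control libraries. Without adjustment 1 was higher and 7 lower (5.72% and 6.98% of all genes). The 7 became 3 without control replicate 2. All 9 treated libraries were below all 3 control libraries for 4 of the 33 (1.46% of all genes), among them P2ry12, Slc2a5 and Fcrl2. Slc2a5, a fructose transporter, had 340 to 498 CPM in treated libraries (median 438), 329 to 502 in injured and 519 to 558 in control libraries, a log2 difference of -0.29 ± 0.11 from control (adjusted p = 0.327). P2ry12 differed by -0.35 ± 0.12 (adjusted p = 0.269) and Sall1, a transcription factor that keeps microglial identity, by 0.14 ± 0.10 (adjusted p = 0.588). Ctsl, a lysosomal protease from the disease-associated list, had 1653 to 2127 CPM in treated and 2262 to 2708 in control libraries, without overlap, and differed by -0.46 ± 0.09 (adjusted p = 0.125).

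In treated against control libraries, where 0.0505% of all genes passed, no member of the lists of interferon response, antigen presentation, complement and phagocytosis, cell cycle, cholesterol synthesis, oxidative phosphorylation and ribosomal proteins passed. Of 43 cell cycle genes 7 were higher and 0 lower without adjustment (5.72% and 6.98% of all genes), with a median of 0.14; the 7 became 1, 3 or 14 when control replicate 2, 1 or 3 was left out, and 11 without HuMSC125 replicate 3. Mx2, an interferon-induced gene, had 21.4 to 46.2 CPM in treated (median 32.6), 18.7 to 33.4 in injured and 12.4 to 21.9 in control libraries, a log2 difference of 0.85 ± 0.23 from control (adjusted p = 0.189). Dpp6 was the only member of the list of potassium and calcium handling to pass, of 26 tested, and it had been put in that list with its earlier result known.

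Markers of other cells differed between the groups in both directions, and their part in the results above was not tested. Erythroid transcripts summed to 28.8 to 213 CPM in treated (median 110), 65.2 to 277 in injured and 288 to 666 in control libraries, so treated and injured libraries both lay below control. Of 6 tested members 0 passed and 5 were lower without adjustment (6.98% of all genes). Hbb, a globin gene with near-identical copies that make its counts uncertain, differed by -1.98 ± 0.49 on the log2 scale (adjusted p = 0.158). Neutrophil transcripts summed to 218 to 348 CPM in treated (median 300), 342 to 479 in injured and 364 to 394 in control libraries, so every treated library was below every control library. Of 12 tested members 0 passed, 6 were lower and 0 higher without adjustment (6.98% and 5.72% of all genes), with a median of -0.63; without control replicate 3 the 6 became 3. Treated against injured libraries, 4 of the 12 fell (1.27% of all genes did); S100a9, an abundant neutrophil protein, differed by -1.82 ± 0.32 there (adjusted p = 0.0128).

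Ependymal and choroid plexus transcripts summed to 2628 to 6804 CPM in treated (median 4777), 3422 to 4320 in injured and 4762 to 11680 in control libraries. Treated and control libraries overlapped. Of 11 tested members 0 passed and 6 were lower without adjustment (6.98% of all genes), a count that became 0 without control replicate 2, the library with the highest sum. Ttr, the transthyretin of the choroid plexus, differed by -0.87 ± 0.26 (adjusted p = 0.221). Neuronal transcripts summed to 756 CPM in HuMSC125 replicate 2, against 67.0 to 90.8 in the other treated libraries, 45.8 to 70.5 in injured and 50.7 to 70.0 in control libraries. The median log2 difference of the 18 tested neuronal genes from control was 0.76 with that library and 0.34 without it, and 0 passed in treated against control libraries. Mog in that library, at 5.56 CPM, lay within the range of the other libraries at the higher doses.

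**Figure D4:**
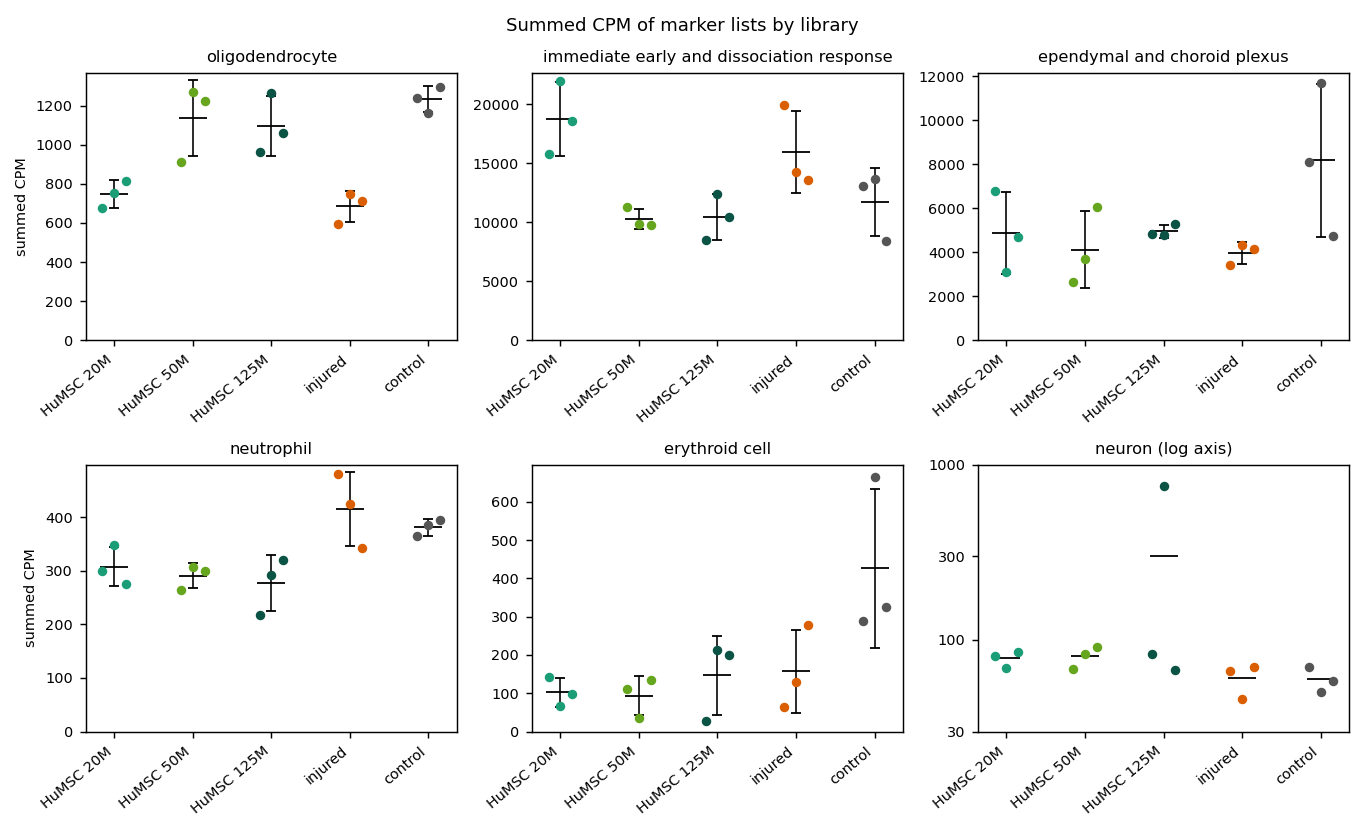
Summed CPM of 6 marker lists in each library, with the mean and SD of 3 libraries a group (mean only in the neuron panel, which has a log axis). Oligodendrocyte transcripts are low at 20M cells/kg (675 to 816) and in injured libraries (597 to 748) against control (1164 to 1295), and HuMSC125 replicate 2 stands apart for neuronal transcripts at 756.

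The contrast of treated with control libraries was also taken in the other 5 runs of the series, each with its own 9 treated and 3 control libraries and its own fit, for the same 6 named genes; this was chosen after seeing the data. Each run differs in age or route, so the values are set side by side. Ankrd55 differed from control by -2.27 ± 0.23 in the P7 intranasal run (adjusted p = 0.000195) and by -2.29 ± 0.15 in the P7 intravenous run (adjusted p = 6.7e-06), where 416 of 13872 genes (3%) and 97 of 14698 genes (0.66%) passed. It did not pass in the P12 intravenous run (-0.30 ± 0.11, adjusted p = 0.135), where 346 of 13874 genes did (2.49%), nor at P22 by either route (-0.39 ± 0.16 intranasal, -0.37 ± 0.18 intravenous), where 1 gene (0.00736%) passed in the intranasal and 505 genes (3.6%) in the intravenous run. Dpp6 passed in the P7 intranasal run (-1.51 ± 0.27, adjusted p = 0.0133) and in the P12 intravenous run (-1.21 ± 0.18, adjusted p = 0.00724), where its 9 treated libraries had 11.4 to 38.7 CPM against 55.1 to 60.3 in control libraries. Ephb1 and Gas7 passed in 1 other run each, P7 intranasal, at -0.92 ± 0.17 (adjusted p = 0.0134) and 0.44 ± 0.11 (adjusted p = 0.0499). Pygl and Mog passed in none of the other 5 runs, and Mog was too low to be tested in the P7 intranasal run.

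At P12 the treated minus control difference in Mog differed between the intranasal and intravenous runs. Injured minus control was -1.98 ± 0.26 for Mog in the intranasal run (edgeR, adjusted p = 0.00158), where 383 genes (2.76%) passed. In the intravenous run it was 0.19 ± 0.27 (adjusted p = 0.839), where 2 of 13874 genes (0.0144%) passed. Mog was thus not called lower in injured libraries of the intravenous run. In the P12 intravenous run Mog had 4.04 to 7.72 CPM in treated (median 4.91), 3.99 to 5.02 in injured and 3.14 to 4.75 in control libraries. Treated libraries overlapped control there, and, with each run normalized separately, the control libraries themselves were lower than those of the intranasal run (8.37 to 9.80 CPM). In 1 fit over both P12 runs, the treated minus control difference was greater by 1.66 ± 0.30 for Mog (adjusted p = 0.0173) in the intravenous run, where 18 of 14362 genes (0.125%) passed. The other 5 named genes did not pass that test, with a difference of 0.61 ± 0.20 for Ankrd55 (adjusted p = 0.207), 0.37 ± 0.32 for Dpp6 and -0.47 ± 0.16 for Gas7 (adjusted p = 0.217). Route and run are the same division of libraries and cannot be told apart.

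**Figure D5:**
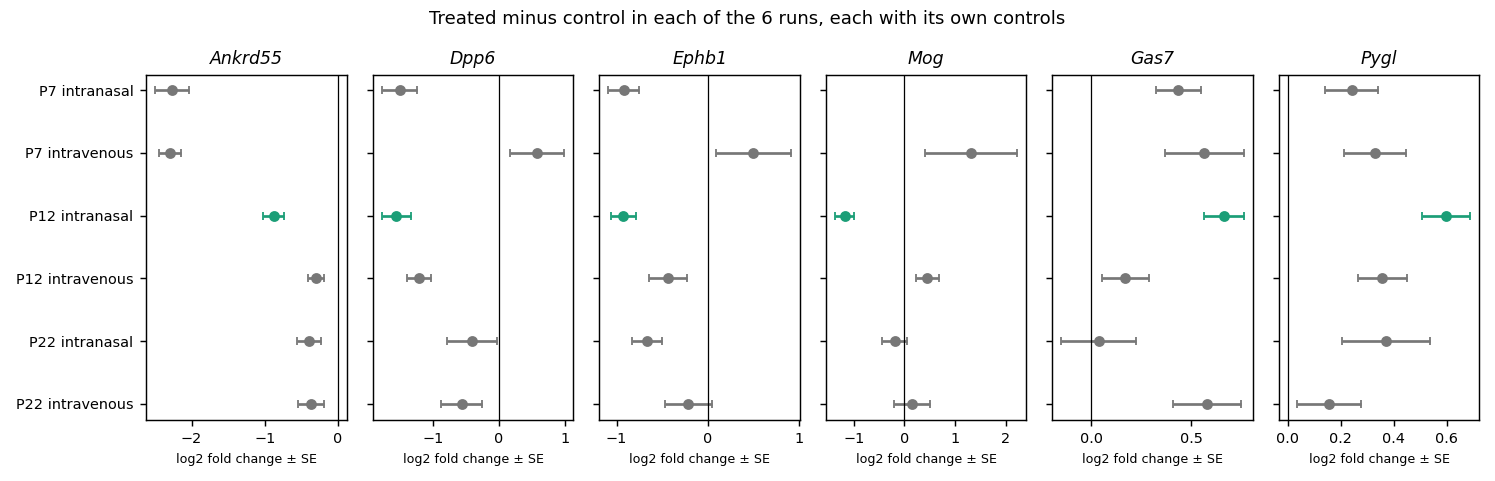
Log2 fold change of treated over control libraries, with its SE, for 6 genes in each of the 6 runs (rows), with the P12 intranasal run in green; each panel has its own x scale. Ankrd55 is lowest in both P7 runs (-2.27 and -2.29). Mog was too low to be tested in the P7 intranasal run and is not drawn there. Among the runs drawn, Mog lies below 0 by more than its SE in the P12 intranasal run alone.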

How the data were processed

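RNA of CD11b/c-enriched rat brain cells was sequenced from poly(A)-selected, stranded libraries made from 100 ng of total RNA as 75-base single reads, per the labels' protocols. The authors deposited raw counts per gene for 32623 genes in 90 libraries. The submitters' processing notes name HTSeq 0.5.3, STAR 2.7.2d, DESeq2 1.8.1 and SAMtools, without saying in which order; the genome build and annotation are not given in the sources used here.

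The 15 libraries of the P12 intranasal run, which share 1 sequencing run, were fitted together with a mean per group in edgeR 4.0.16 (R 4.3.3): genes passing filterByExpr (minimum count 10, total 15), trimmed-mean (TMM) normalization, the quasi-likelihood test, and Benjamini-Hochberg adjustment over all 13868 genes tested at a threshold of 0.05. Treated is the mean of the 3 dose means. Levels are CPM with TMM factors; SEs come from the F statistic. The other runs were fitted in the same way, each alone. On simulated counts with 200 of 13868 genes changed by a log2 fold of 1, the treated against control fit recovered 173 (86.5%) with 12 false calls. The changed genes were drawn from those above an expression floor and were changed alike at all 3 doses. That share therefore does not carry over to weakly expressed genes or to changes that differ between doses. DESeq2 1.42.0 was an alternative.

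The 19 lists of cell states and 16 of cell types hold 764 genes, of which 731 matched the table, 8 through synonyms. Members and lists were chosen with earlier results of these data known. Counts of list members set beside shares of all genes are therefore a description and not an independent test. Named genes were those called in treated against control or at a dose, up to 4 per list, and the leading genes called among doses. Others came from a list of genes fixed by name. That list holds the genes given as called in injured but not in treated libraries, which were not drawn by a rule. No clear pairing of samples by replicate number was seen, which does not show that the samples were unpaired. Some genes that enter these counts are not reported here by name.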

Additional observations from a re-analysis of the deposited data

Results flagged for a closer look

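Over 50 gene and list values of the 9 treated libraries, 5 had a library apart from the others; chance gives about 1 in 20. Adamts13 stood at 47.1 CPM in HuMSC20 replicate 1, and the next library had 7.13. Ankrd55 stood at 101 CPM in HuMSC125 replicate 3, above the other treated libraries and under all control libraries. The summed level of border-associated macrophage markers was 2859 CPM in HuMSC125 replicate 1, that of mast cell markers 524 CPM in HuMSC20 replicate 1, and that of neuronal markers 756 CPM in HuMSC125 replicate 2. The treated minus control difference was greater in the P12 intravenous run than in the P12 intranasal run by 1.66 for Mog (edgeR, adjusted p = 0.0173) on the log2 scale. Mog did not pass in injured against control libraries of the intravenous run (edgeR, adjusted p = 0.839).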

How the results depend on the processing

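DESeq2 called more genes than edgeR: 130 against 7 in all treated libraries, 180 against 14 at 20M cells/kg, 70 against 0 at 50M, 33 against 0 at 125M, 150 against 33 among doses, 445 against 225 in treated against injured and 865 against 383 in injured against control libraries. Without the filter on low counts the numbers were 61 at 20M, 8 at 50M and 101 among doses. In the 12 libraries without the injured group they were 4 in all treated libraries (Mog, Gas7 and Pygl were among the genes that lost their calls), 26 at 20M and 1 at 50M. The count of lower oligodendrocyte markers in all treated libraries was 6 in DESeq2 and 0 in the 12 libraries, against 2; at 20M it was 8 without the filter and 10 in DESeq2, against 5. The count of higher immediate early genes at 20M was 13 without the filter and 16 in DESeq2, against 2. The cause of these differences was not tested. With 1 library of the comparison's own groups left out, the counts ran from 0 to 7 in all treated libraries, 0 to 5 at 20M, 0 to 2 at 50M, 0 to 0 at 125M, 68 to 452 in injured against control, 41 to 243 in treated against injured and 2 to 66 among doses. Leaving out a library of another group, which shares the fit, gave 2 to 8 in all treated libraries and 12 to 34 at 20M. Fits that left out 1 library of the comparison's own groups gave 0 to 2 lower oligodendrocyte markers in all treated libraries and 0 to 4 at 20M. They gave 0 to 1 higher immediate early genes at 20M. A replicate block gave 22 genes at 20M, 1 at 50M, 13 among doses and 5 higher immediate early genes at 20M, and 8 in all treated libraries. No clear pairing by number was seen. Of 30 pairs of libraries with the same number, 9 had a correlation of deviations over 0.1 (-0.22 to 0.279), and 3 of 15 libraries correlated best with their own number. Such correlations do not show that the samples were unpaired. DESeq2 size factors in edgeR left 7, 14, 0, 0 and 32 calls, in the order all treated, 20M, 50M and 125M and among doses. Over 343 alternatives of 26 called gene results, 213 kept the call, 130 lost it and 0 changed direction.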
